A study of Mus musculus with 15 samples.

Results

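The 10 genes described here are components of canonical Wnt signalling and the Wnt ligand Wnt5a: Wnt5a, Fzd1, Fzd2, Lrp6, Ctnnb1, Axin2, Lef1, Tcf7, Tcf7l1 and Tcf7l2. They were taken by a list of names, drawn up with earlier results of these data known, from a table that covers 11960 genes, and each has 1 row (under 1 transcript identifier) in it. Their levels were followed in mouse dental mesenchymal cells (mDMCs) of the ICR strain, a wild-type outbred stock, from freshly isolated cells through 48 h of culture, and in the dental mesenchymal tissue. The cells came from the first molar germs of the lower jaw of E14.5 embryos, at the cap stage of tooth development, after dispase had been used to take off the epithelium and trypsin to separate the cells. Freshly isolated mDMCs (0 h) had 3 libraries, mDMCs grown in DMEM with fetal bovine serum had 2 at 12 h and 3 each at 24, 36 and 48 h, and the tissue had 1. The labels do not say whether libraries of a time point came from separate litters or cultures, so p-values measure only the spread between these libraries, which may be technical. Every cultured library also differs from 0 h by plating and by serum, and these cannot be told apart from time in culture.

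Wnt ligands are secreted lipid-modified proteins that bind Frizzled receptors and, in the canonical branch, the co-receptor Lrp6. Without a ligand, a cytoplasmic destruction complex built on Axin marks β-catenin, the product of Ctnnb1, for degradation, and with a ligand β-catenin accumulates, enters the nucleus and binds the DNA-binding factors of the TCF/LEF family (Lef1, Tcf7, Tcf7l1 and Tcf7l2). Wnt5a acts mostly outside this branch, through Ror receptors and cell polarity. In tooth development Lef1 is known to be needed in the bud, and Axin2 is used as a general reporter of canonical signalling because its own transcription is induced by it. The question the time course addresses is how gene expression changes in mDMCs over the first 48 h of culture, a period over which the study also assayed tooth formation.

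Values are the whole-number expression scores of the deposited table, on a scale that gives every library nearly the same distribution (median score 721 and largest score 127101). The sequencing depth behind them is unknown, which leaves counting error without an estimate, and changes in total RNA are not visible. Log2 fold changes are differences of mean log2(score + 1), which understates the change of low genes, and a transcript is called higher or lower at an adjusted p below 0.05 over the 12079 transcripts tested (limma, Benjamini-Hochberg). The 4 comparisons with 0 h share the same 3 libraries and are not independent of each other. The median log2 fold change of all transcripts stayed between 0.016 and 0.031 in these 4 comparisons, so changes are read against a centre near 0.

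Against freshly isolated mDMCs, 9 of the 10 genes were lower at 48 h and 1, Wnt5a, was higher, while 34.0% of all transcripts were called lower and 37.1% higher. At 12 h 4 of the 10 were lower (28.3% of all transcripts), namely Fzd2, Ctnnb1, Axin2 and Lef1, with Wnt5a higher (29.9%) and 5 not called. At 24 h 9 were lower (31.8%) and at 36 h 8 (34.0%), with Wnt5a again the 1 that was higher (35.0% and 36.0% of all transcripts). The median log2 fold change of the 10 at the 4 times in order was −0.37, −1.18, −1.14 and −1.38. Lower by more than 2-fold at an unadjusted p below 0.05, the cut-off used in the study's methods, were 4, 5, 6 and 7 of the 10 at 12, 24, 36 and 48 h, where 12.1%, 14.2%, 15.6% and 15.9% of all transcripts met it. All 11 cultured libraries lay below all 3 libraries of 0 h for 6 genes, Fzd2, Lrp6, Ctnnb1, Axin2, Lef1 and Tcf7, and for 22.6% of all transcripts. For Tcf7l1 and Tcf7l2 10 of 11 did, for Fzd1 8 of 11 and for Wnt5a none.

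**Figure D1:**
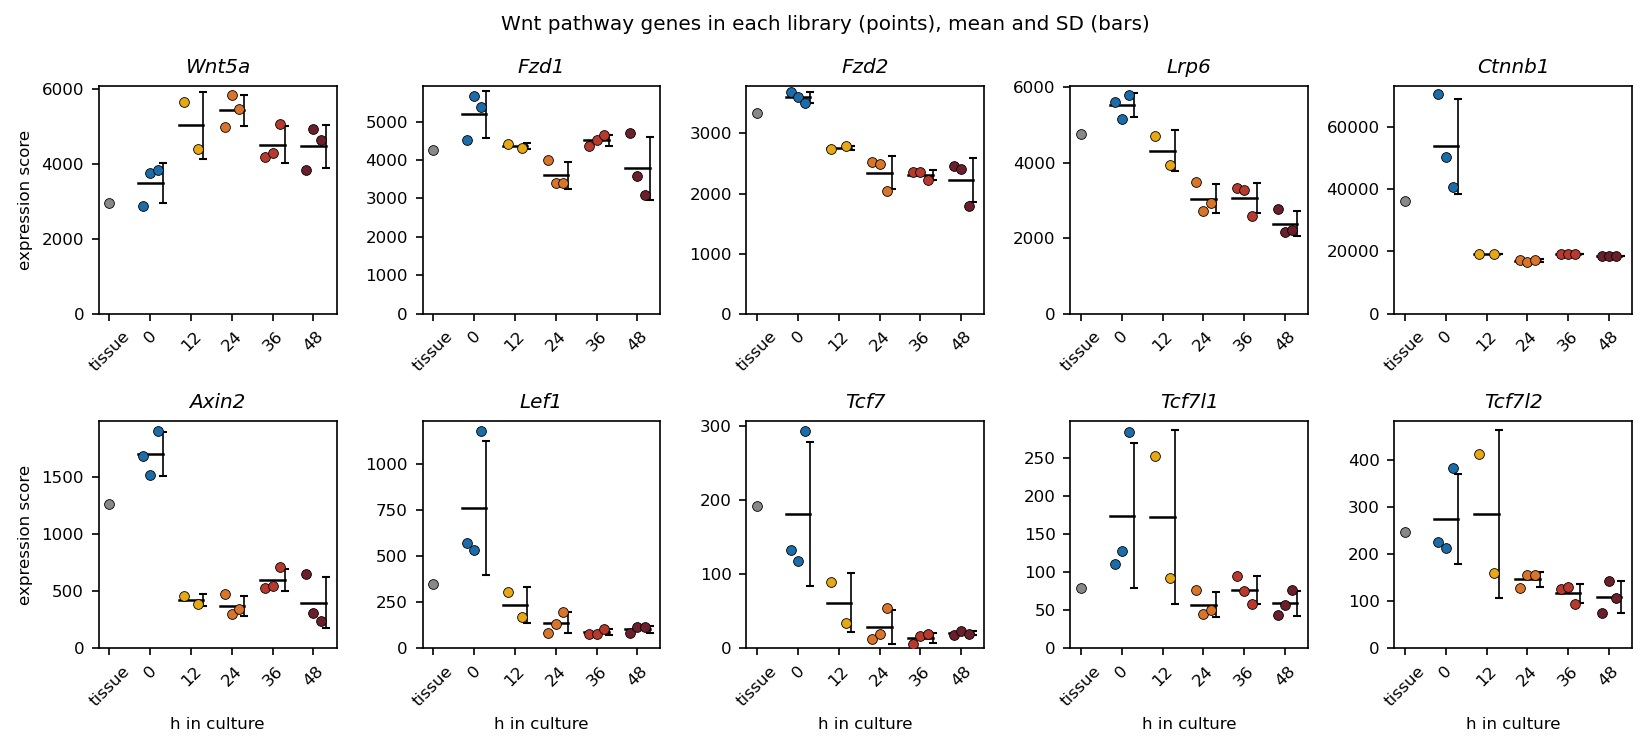
Expression score (linear axis from 0, scaled per panel) of each of the 10 genes in the tissue and at 0, 12, 24, 36 and 48 h, 1 panel per gene. Points are libraries and bars are group means ± SD (the tissue has 1 library and no bar), and the points of Lef1 lie between 531 and 1178 at 0 h and between 77 and 116 at 36 and 48 h.

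To show the genomic setting of Lef1 and Axin2, windows of 250 bases before annotated starts were read from RefSeq promoters on GRCm38.p6. Of the 10 genes, 7 had windows, 13 in all, because some have several starts. They were searched on both strands for the core letters recognised by TCF/LEF factors, CTTTGA or its reverse complement TCAAAG, which do not overlap each other. Of the 13 windows 2 held a match, and 13.8% of all 32851 windows of this length did. Lef1 has 4 windows, of which 1 held a match. The 3 windows below are shown because Lef1 and Axin2 are both known as canonical targets in many tissues and both were lower in culture. They are read 5′ to 3′ on the plus strand, and capitals mark a match. The first, chr3:131110047-131110296, lies before the first start of Lef1, overlaps an exon of the predicted gene Gm43352 and has no match. The Axin2 window, chr11:108920099-108920348, overlaps no annotated gene and has none either. The Lef1 window with a match, chr3:131156044-131156293, is the most downstream of the 4, lies in an intron before an internal start and holds 2 matches, beginning 180 and 120 bases before that start, while 1.37% of all windows hold 2 or more.
Lef1, first start: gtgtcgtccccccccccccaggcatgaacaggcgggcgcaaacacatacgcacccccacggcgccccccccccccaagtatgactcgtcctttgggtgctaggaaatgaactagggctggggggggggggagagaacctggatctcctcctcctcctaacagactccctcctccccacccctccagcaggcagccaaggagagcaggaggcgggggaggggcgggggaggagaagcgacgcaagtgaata
Lef1, internal start: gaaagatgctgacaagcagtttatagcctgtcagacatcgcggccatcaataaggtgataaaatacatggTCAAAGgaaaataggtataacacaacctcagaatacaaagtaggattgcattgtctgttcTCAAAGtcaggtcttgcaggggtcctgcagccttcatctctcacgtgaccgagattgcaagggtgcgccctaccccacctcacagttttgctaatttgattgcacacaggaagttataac
Axin2: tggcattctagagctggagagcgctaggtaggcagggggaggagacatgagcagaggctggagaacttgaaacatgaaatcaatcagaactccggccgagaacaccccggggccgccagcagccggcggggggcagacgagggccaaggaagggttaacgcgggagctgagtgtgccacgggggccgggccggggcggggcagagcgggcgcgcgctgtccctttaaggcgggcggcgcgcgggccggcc
The other matching window belongs to Fzd1, with 1 match 242 bases before its start. A match of 6 letters is a description of the sequence and not a binding site.

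Wnt5a was the 1 ligand among the 10 and the gene that was higher in culture. It is listed as a transcript of 5 exons on the plus strand of chromosome 14 (GRCm38, 28504750 to 28527448). Its scores were 2865, 3753 and 3833 at 0 h, 5671 and 4405 at 12 h, 4997, 5835 and 5479 at 24 h, 4183, 4306 and 5076 at 36 h, then 3833, 4927 and 4651 at 48 h. The cultured libraries lay above all of 0 h up to 36 h, and at 48 h the lowest equalled the highest of 0 h. The mean rose from 3484 ± 537 (SD, n = 3) at 0 h to 5437 ± 421 (n = 3) at 24 h, a log2 fold change of 0.65 (SE 0.14, limma adjusted p = 0.00118). At 12 h the change was 0.53 (adjusted p = 0.0109), at 36 h 0.38 (adjusted p = 0.0271) and at 48 h 0.36 (adjusted p = 0.0334). The later calls were lost without the lowest library of 0 h, replicate 1, at 0.25 for 36 h (adjusted p = 0.128) and 0.23 for 48 h (adjusted p = 0.156). They were also lost without 36 h replicate 3 (0.30, adjusted p = 0.11) and without 48 h replicate 2 (0.29, adjusted p = 0.121) or 3 (0.33, adjusted p = 0.0911). Of 23 alternatives of the fit, 3 ended the 12 h call, 2 the 36 h call and 5 the 48 h call. Without 12 h replicate 1 the 12 h change was 0.35.

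The receptors and the co-receptor had log2 fold changes between −1.22 and −0.47 at 48 h, and the 6 genes downstream of them between −2.96 and −1.32, a difference that was not tested. Lrp6, the co-receptor that canonical signalling needs, is encoded by 23 exons on the minus strand of chromosome 6 (134446476 to 134566913). Its scores were 5619, 5164 and 5785 at 0 h, 4711 and 3938 at 12 h, 3496, 2733 and 2927 at 24 h, 3323, 3270 and 2593 at 36 h, then 2764, 2164 and 2219 at 48 h. No cultured library reached the lowest of 0 h. The log2 fold change was −0.36 at 12 h (adjusted p = 0.0518), −0.86 at both 24 and 36 h (adjusted p = 7.2e-05 and 6.7e-05) and −1.22 at 48 h (SE 0.13, adjusted p = 2.76e-06), a 2.33-fold lower level. The 12 h difference was called in 7 of 23 alternatives, among them the replicate block (−0.40, adjusted p = 0.0129), and was −0.23 without 12 h replicate 2 (adjusted p = 0.316).

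Fzd2, a Frizzled receptor of 1 exon on chromosome 11 (102604396 to 102608058, plus strand), had scores of 3693, 3608 and 3510 at 0 h, 2736 and 2787 at 12 h, 2519, 2490 and 2039 at 24 h, 2360, 2360 and 2220 at 36 h, then 2452, 2408 and 1795 at 48 h. The 3 libraries of 0 h stood within a narrow band above all of the others. It was lower at every time, by −0.38 at 12 h (adjusted p = 0.0207), −0.62 at 24 h (adjusted p = 0.000341), −0.64 at 36 h (adjusted p = 0.000254) and −0.71 at 48 h (adjusted p = 9.85e-05). Leaving out either 12 h library ended the 12 h call (adjusted p = 0.0859 and 0.0662).

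Fzd1, the other Frizzled receptor, also of 1 exon (chromosome 5, 4753839 to 4758035, minus strand), had scores of 4511, 5665 and 5379 at 0 h, 4426 and 4300 at 12 h, 3991, 3401 and 3401 at 24 h, 4373, 4511 and 4644 at 36 h, then 4694, 3576 and 3098 at 48 h. At 36 and 48 h its libraries overlapped those of 0 h. It was lower at 24 h, by −0.52 (adjusted p = 0.00377), and at 48 h, by −0.47 (adjusted p = 0.0071), and was not called at 12 h (−0.24, 95% interval −0.57 to 0.08) or 36 h (−0.20, −0.49 to 0.10).

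Ctnnb1, which encodes β-catenin, the messenger of the canonical branch, is represented by a short transcript of 364 bases and 4 exons at the 5′ part of the gene (chromosome 9, 120929216 to 120950635, plus strand), without an annotated end of the coding sequence. The deposited table is named as one of genes and has 11973 matched transcripts for 11960 genes. Whether this row covers the whole gene or only this transcript is not given in the sources used here. The value was therefore not read as that of the full-length mRNA. Its scores were 70508, 50354 and 40594 at 0 h, 19210 in both libraries of 12 h, 17307, 16448 and 17307 at 24 h, 19210 in all 3 at 36 h and 18462 in all 3 at 48 h. The log2 fold change was −1.45 at 12 h (adjusted p = 1.15e-05), −1.62 at 24 h (9.01e-07), −1.45 at 36 h (2.14e-06) and −1.51 at 48 h (1.4e-06), between 2.73- and 3.08-fold. The equal values within groups come from the scale: at the top of the table the row takes only every 10th rank, from 20, 30 and 40 at 0 h to 110 to 140 in culture, so its SD within groups and its adjusted p-values reflect that grid as well as the spread between libraries. Wnt5a, Fzd1, Fzd2 and Lrp6 also moved mostly in steps near 10 ranks. Some of their libraries tie, such as Fzd1 at 3401 in 24 h replicates 2 and 3, so this limit touches them too.

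Axin2, scaffold of the destruction complex and negative feedback target of the pathway, is a transcript of 11 exons on chromosome 11 (108920349 to 108950783, plus strand). It had scores of 1686, 1517 and 1904 at 0 h, 460 and 385 at 12 h, 472, 304 and 343 at 24 h, 533, 547 and 710 at 36 h, then 651, 310 and 238 at 48 h. The highest cultured library, at 710, was far below the lowest of 0 h, at 1517. The level was 4.02-fold lower at 12 h (log2 −2.01, SE 0.33, adjusted p = 0.000188), 4.62-fold at 24 h (−2.21, adjusted p = 2.22e-05), 2.86-fold at 36 h (−1.52, adjusted p = 0.00046) and 4.65-fold at 48 h (−2.22, adjusted p = 1.79e-05).

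Lef1, the TCF/LEF factor tied to early tooth development, had the second largest fall of the 10 at 24, 36 and 48 h in the main fit, after its paralogue Tcf7. The order turns on single libraries. Without 0 h replicate 3 the 24 h changes were −2.05 for Lef1 and −2.12 for Axin2, and without 48 h replicate 1 the 48 h changes were −2.61 and −2.64. The Lef1 transcript spans 12 exons on chromosome 3 (131110471 to 131224356, plus strand). Its scores were 570, 531 and 1178 at 0 h, 306 and 169 at 12 h, 86, 135 and 198 at 24 h, 77, 78 and 107 at 36 h, then 82, 114 and 116 at 48 h. No cultured group overlapped with 0 h, the 2 libraries of 12 h lay above all of 36 and 48 h, and replicate 3 of 0 h stood far above the other replicates. The mean went from 760 ± 363 at 0 h to 104 ± 19.1 at 48 h (both SD, n = 3). The log2 fold change was −1.64 at 12 h (SE 0.39, adjusted p = 0.00329), −2.42 at 24 h (SE 0.35, adjusted p = 5.21e-05), −3.02 at 36 h (adjusted p = 6.37e-06) and −2.78 at 48 h (adjusted p = 1.31e-05), that is 3.11-, 5.34-, 8.13- and 6.84-fold lower. Without replicate 3 of 0 h it was still lower, by −2.05 at 24 h (adjusted p = 0.000211) and −2.41 at 48 h (adjusted p = 5.16e-05), while the 12 h call was lost without 12 h replicate 2 (−1.21, adjusted p = 0.0528).

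Tcf7, which encodes TCF1, had the largest fold changes of the 10 from 24 h on in the main fit. Without 24 h replicate 1, though, its 24 h change was −2.32 and that of Axin2 −2.39. The Tcf7 transcript of 10 exons lies on the minus strand of chromosome 11 (52252371 to 52282571). The scores were 133, 118 and 293 at 0 h, 90 and 34 at 12 h, 13, 19 and 55 at 24 h, 6, 17 and 19 at 36 h, then 18, 24 and 20 at 48 h. No cultured library reached 118, the lowest of 0 h. At 12 h it was not called (−1.57, 95% interval −2.96 to −0.18, adjusted p = 0.0517), and it was 6.69-fold lower at 24 h (−2.74, SE 0.57, adjusted p = 0.00095), 12.3-fold at 36 h (−3.62, adjusted p = 9.38e-05) and 7.77-fold at 48 h (−2.96, adjusted p = 0.000477). The 12 h change was −2.26 without 12 h replicate 1, which was called (adjusted p = 0.0318), and −0.88 without 12 h replicate 2 (adjusted p = 0.371). At scores this low the 36 h change also depends on the pseudocount, and was −2.93 with a pseudocount of 10. Every library of 36 h lay below 1 ppm of its total, the level a transcript had to reach in 2 libraries to be tested. Tcf7 passed that filter through other groups, where it was higher.

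Tcf7l1 and Tcf7l2, which encode TCF3 and TCF4, were not called at 12 h, where their intervals were wide, and were lower later. Tcf7l1 often acts as a repressor at Wnt targets, and its transcript has 12 exons on chromosome 6 (72626378 to 72789254, minus strand). Its scores were 111, 128 and 284 at 0 h, 253 and 92 at 12 h, 77, 45 and 51 at 24 h, 95, 76 and 58 at 36 h, then 44, 57 and 77 at 48 h. The 12 h change was −0.06 (95% interval −1.07 to 0.95), and from 24 h on the change was −1.49 (adjusted p = 0.00677), −1.08 (adjusted p = 0.0343) and −1.45 (adjusted p = 0.00739).

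Tcf7l2 also has 12 exons (chromosome 19, 55741820 to 55933252, plus strand). Its scores were 227, 213 and 384 at 0 h, 412 and 160 at 12 h, 129, 156 and 156 at 24 h, 126, 131 and 94 at 36 h, then 76, 144 and 107 at 48 h. The 12 h change was −0.04 (95% interval −0.86 to 0.77), followed by −0.85 at 24 h (adjusted p = 0.0399), −1.19 at 36 h (adjusted p = 0.00688) and −1.32 at 48 h (adjusted p = 0.00344). In both genes the highest libraries were replicate 3 of 0 h and replicate 1 of 12 h, which also were the highest of their time points for Lef1 and Tcf7. Over all transcripts the deviations of these 2 libraries from their group means correlated at 0.477, the highest value between libraries of different numbers. The 24 h call of Tcf7l2 was lost with the replicate block (adjusted p = 0.0559) and without any 1 of the 24 h libraries (adjusted p between 0.0631 and 0.106), and the 36 h call of Tcf7l1 without 36 h replicate 2 (adjusted p = 0.0675) or 3 (adjusted p = 0.113). Without replicate 3 of 0 h, the 24 h change of Tcf7l2 was −0.58 (adjusted p = 0.165), the 36 h change of Tcf7l1 was −0.66 (adjusted p = 0.162), and the 12 h changes turned to 0.35 for Tcf7l1 and 0.22 for Tcf7l2. Without that library and 12 h replicate 1 together, 3 of the 10 genes were called at 12 h.

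**Figure D2:**
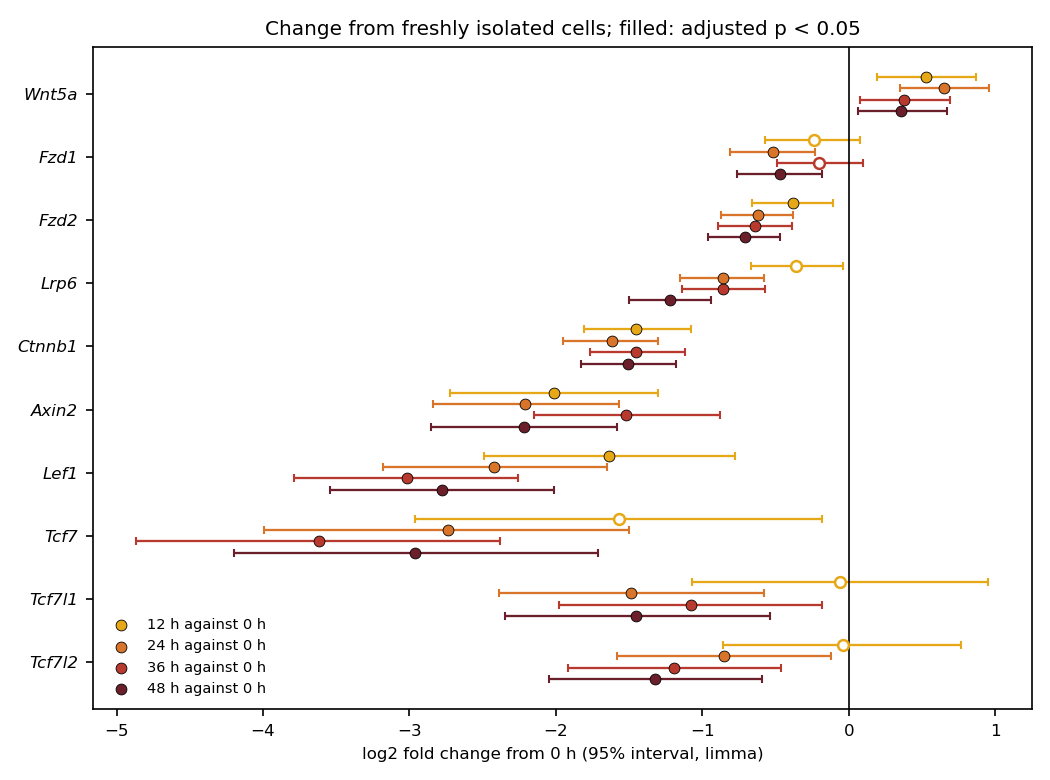
Log2 fold change of the 10 genes against 0 h at 12, 24, 36 and 48 h, with 95% intervals from the limma fit and filled points for an adjusted p below 0.05. Wnt5a lies right of 0 at all 4 times, Lef1 and Tcf7 reach −3.02 and −3.62 at 36 h, and Tcf7l1 and Tcf7l2 lie near 0 at 12 h only.

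Between successive culture times, none of the 10 genes passed the adjusted threshold in limma. The comparison of 24 h with 12 h had 2 of them at an unadjusted p below 0.05, and so had 36 h with 24 h and 48 h with 36 h, while 24.8%, 34.8% and 13.4% of all transcripts were. Of all transcripts 8.25% were called in either direction between 12 and 24 h and 19.7% between 24 and 36 h. Between 36 and 48 h 0.0248% were, or 3 transcripts. The nearest to a call was Lrp6, lower at 24 h than at 12 h by −0.50 (95% interval −0.82 to −0.19, adjusted p = 0.0528), which was called with the replicate block (−0.47, adjusted p = 0.0329). Tcf7l1 differed by −1.43 in that comparison (adjusted p = 0.0814), and was called without 0 h replicate 3 (adjusted p = 0.0452). Without 12 h replicate 2, Tcf7l1 (−2.15, adjusted p = 0.0275), Tcf7l2 (−1.49, adjusted p = 0.0335) and Lrp6 (−0.63, adjusted p = 0.0493) were all called there. Axin2 was 0.69 higher at 36 h than at 24 h (0.06 to 1.32, adjusted p = 0.114) and 0.70 lower at 48 h than at 36 h (adjusted p = 0.321), and Fzd1 was 0.33 higher at 36 h than at 24 h (adjusted p = 0.1). Without 48 h replicate 1, the 36 h differences from 24 h were called for Axin2 (adjusted p = 0.0184) and Fzd1 (adjusted p = 0.0329), and so was the 48 h difference of Axin2 from 36 h (−1.12, adjusted p = 0.0247).

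Between 24 and 48 h none of the 10 genes was called, where 23.8% of all transcripts were called in either direction. Lrp6 was the 1 gene at an unadjusted p below 0.05 (36.8% of all transcripts), with a difference of −0.36 (95% interval −0.64 to −0.07, adjusted p = 0.0651). It was called in a fit with a replicate block (−0.36, adjusted p = 0.0264), without 36 h replicate 3 (adjusted p = 0.0494) and without 48 h replicate 1 (−0.47, adjusted p = 0.0325). For Lef1 the interval was −1.12 to 0.41, for Axin2 −0.64 to 0.62, for Ctnnb1 −0.21 to 0.44 and for Wnt5a −0.59 to 0.02. These intervals leave room for a change of Lef1 by more than 2-fold downward, so equal levels were not shown.

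The tissue library is a single sample and gives a description only. Its scores were 2957 for Wnt5a, 4270 for Fzd1, 3334 for Fzd2, 4766 for Lrp6, 36325 for Ctnnb1, 1262 for Axin2, 349 for Lef1, 193 for Tcf7, 80 for Tcf7l1 and 248 for Tcf7l2. It lay within the range of 0 h for Wnt5a, Tcf7 and Tcf7l2, and below all 3 libraries of 0 h for the other 7 genes (32.0% of all transcripts). For Fzd2, Lrp6, Ctnnb1, Axin2, Lef1 and Tcf7 it lay above all 11 cultured libraries, as it did for 28.5% of all transcripts. The ratio of tissue to the 0 h mean was lowest for Lef1 and Tcf7l1, 0.459 each, and highest for Tcf7, 1.06. In Lef1 and Tcf7l1 the 0 h mean is raised by replicate 3 (1178 and 284), so which ratio is lowest depends on that library.

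Markers of other cell types also changed, not all of them downward. The summed score of 8 endothelial markers lay between 9228 and 10902 at 0 h and between 399 and 865 in culture. All 8 lay below 0 h in every cultured library, as did 22.6% of all transcripts. Cldn5, a tight-junction gene of endothelium, was at 0 in every library from 24 h on. The 6 measured markers of blood and macrophages summed to between 31526 and 46130 at 0 h and to between 304 and 773 in culture, and all 6 lay below 0 h in every cultured library. The 9 measured epithelial markers summed to between 2055 and 17198 at 0 h, where replicate 1 was highest for all 9, and to between 91 and 2908 in culture. Only 2 of these 9 lay below 0 h in every cultured library. The 10 dental mesenchyme markers were all measured, and they summed to between 82908 and 98231 at 0 h and to between 46254 and 95444 in culture. Of these 10, 7 lay below 0 h in every cultured library (22.6% of all transcripts). The highest cultured sum is that of 24 h replicate 3, where Prrx1, a mesenchymal homeobox gene, was at 70675, and the next was 77366, below all of 0 h. The 2 measured nerve and Schwann cell markers summed to between 232 and 803 at 0 h and 303 and 1763 in culture, and the 3 measured muscle markers to between 55 and 376 and between 252 and 2251. None of these nerve, Schwann cell and muscle markers lay below 0 h in every cultured library. The part of these cell types in the changes was not tested, and in bulk RNA fewer cells of a type cannot be told apart from less RNA per cell.

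The falls were not limited to these 10 genes. A list of 130 genes of the Wnt pathway in 10 roles had 108 with a row, of which 69 (63.9%) were lower and 18 (16.7%) higher at 48 h, against 34.0% and 37.1% of all transcripts. Without the 10 genes, 60 of 98 (61.2%) were lower and 17 (17.3%) higher, with a median log2 fold change of −0.64. For the list as a whole 48 (44.4%) were lower and 21 (19.4%) higher at 12 h, where 28.3% and 29.9% of all transcripts were. At 24 h 64 (59.3%) and 20 (18.5%) were, against 31.8% and 35.0%, and at 36 h 66 (61.1%) and 18 (16.7%), against 34.0% and 36.0%. By role, 16 of 20 nuclear factors were lower and none higher at 48 h, while 2 of 10 ligands were lower and 5 higher, to be read against the same 34.0% and 37.1%.

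**Figure D3:**
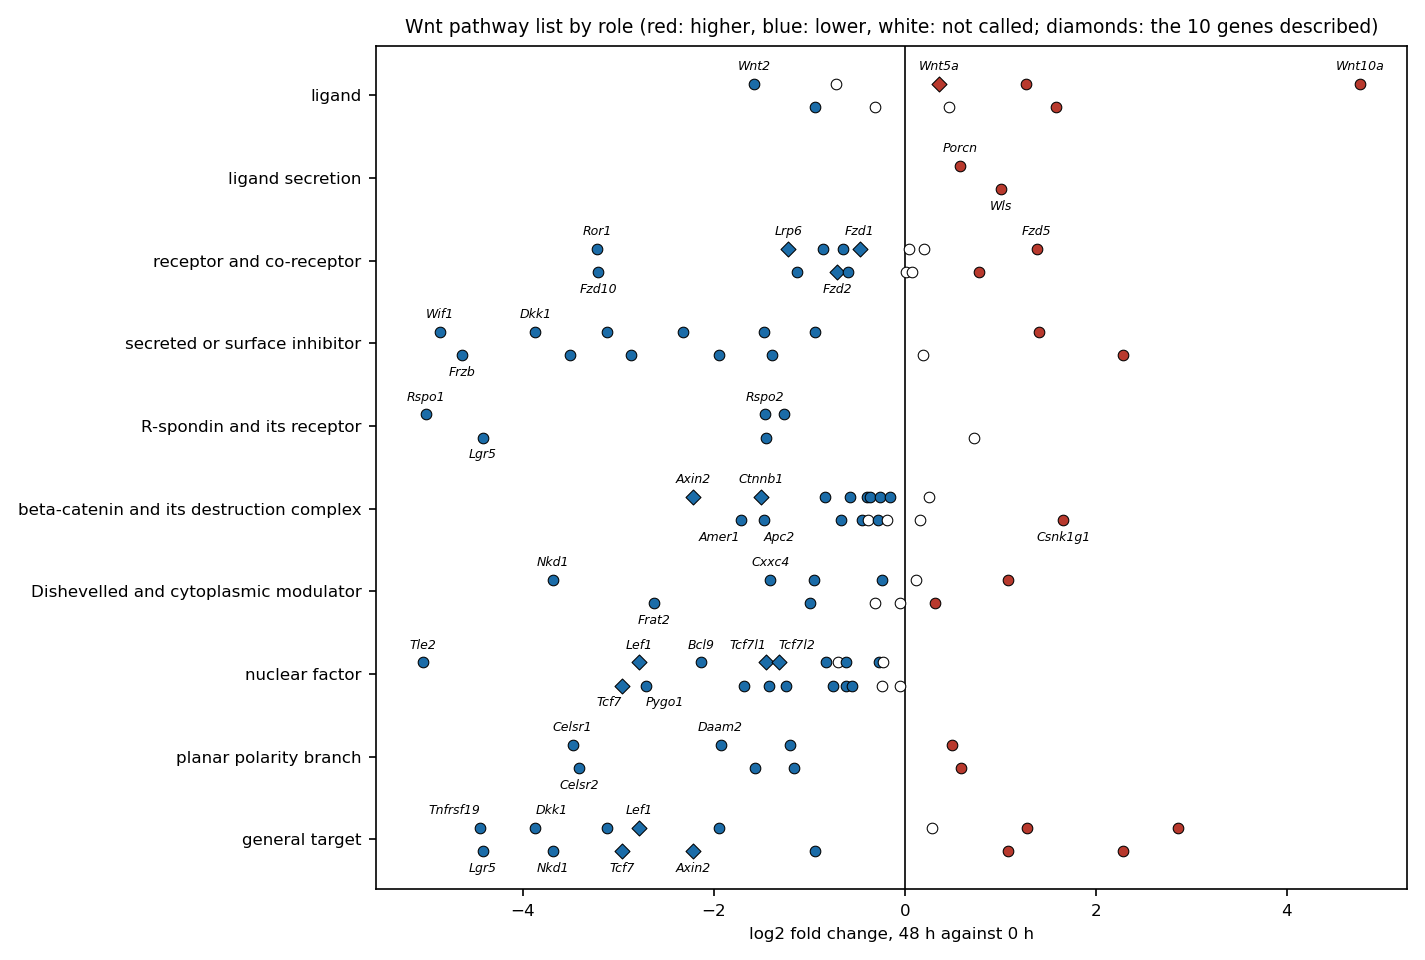
Log2 fold change at 48 h against 0 h (horizontal axis) for the measured genes of the Wnt pathway list, arranged by role, with red for higher, blue for lower and white for not called. Diamonds are the 10 genes described, a gene with several roles appears in each, Wnt7a is left out because it is listed at 0 in every library of 0 h, and all nuclear factors lie left of 0.

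Among the 5 ligands higher at 48 h, Wnt7a and Wnt10a had the largest changes. Beside Wnt5a the others, named here after their values were seen, were Wnt9a (mean 323.7 at 0 h and 815.3 at 48 h) and Wnt4 (1.58). The Wnt4 call was lost without 0 h replicate 2 or 3 (limma adjusted p = 0.16 and 0.174) or 48 h replicate 2 or 3 (0.126 and 0.0789). Wnt7a was listed at 0 in the tissue and in all 3 libraries of 0 h, at 27 and 20 at 12 h, and at 223, 174 and 150 at 48 h, so no fold is given. Wnt10a, a ligand of the dental epithelium in early tooth development, had scores of 40, 2 and 2 at 0 h, the highest in the epithelium-rich replicate 1, and of 170, 195 and 223 at 48 h (log2 4.77, adjusted p = 7.24e-05). That value depends on the libraries of 0 h, and was 6.03 without replicate 1 and 4.14 without either of the others. Wnt2 was lower, with 130, 110 and 99 at 0 h and 31, 54 and 30 at 48 h (−1.58, adjusted p = 0.000326). Both genes of ligand secretion were higher at 48 h, where 37.1% of all transcripts were. Wls, the carrier that brings Wnt proteins to the cell surface, rose by 1.01 (mean 6497 ± 653 to 13060 ± 582), and Porcn, which attaches their lipid, by 0.58.

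Of 15 receptors and co-receptors 9 were lower and 2 higher at 48 h, where 34.0% of all transcripts were lower and 37.1% higher. Ror1, a receptor for Wnt5a, had scores of 1099, 1018 and 1383 at 0 h and of 157, 111 and 108 at 48 h (−3.22, adjusted p = 3.42e-08). Fzd10 was lower by a like factor (−3.21), from 467, 573 and 492 to 63, 45 and 56. Fzd5 was higher, from 177, 243 and 219 to 601, 484 and 579 (1.38, adjusted p = 1.85e-06).

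Extracellular inhibitors and the R-spondin system, which act on ligands and receptors with opposite sign, were both mostly lower. Of 14 secreted or surface inhibitors 11 were lower (34.0% of all transcripts) and 2 higher (37.1%), with a median of −2.13. Wif1, which binds Wnt ligands, had scores of 843, 1419 and 1265 at 0 h and of 49, 34 and 34 at 48 h (−4.87). Frzb, a secreted Frizzled-related protein, went from 8743, 10453 and 10453 to 417, 325 and 449 (−4.64, adjusted p = 4.37e-11). Dkk1, an inhibitor that binds Lrp6, went from 226, 348 and 205 to 14, 8 and 38 (−3.87). R-spondins strengthen Wnt signals at the receptor, and of the 6 genes of this role 5 were lower and none higher, against the same shares. Rspo1 had a mean of 353.7 ± 76.5 at 0 h and of 10 ± 2.65 at 48 h (−5.02), and the R-spondin receptor Lgr5 one of 478.3 ± 52.5 and of 21.7 ± 5.03 (−4.42). The 48 h scores of Rspo1, 7, 11 and 12, lay below 1 ppm of the library totals, the level of the filter for testing. Rspo2 was lower by less (−1.46).

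Inside the cell, 13 of 18 genes of β-catenin and its destruction complex were lower (34.0% of all transcripts) and 1 higher (37.1%) at 48 h, but with a median of only −0.40. Amer1, which recruits the complex to the membrane, was lower by −1.72 and Apc2 by −1.48, and Csnk1g1, a casein kinase, was higher by 1.66. Of 11 Dishevelled genes and cytoplasmic modulators 6 were lower and 2 higher, against the same shares. Among them Nkd1, a feedback inhibitor that binds Dishevelled, had scores of 773, 919 and 1146 at 0 h and of 69, 82 and 64 at 48 h (−3.69), and Frat2 differed by −2.63 and Cxxc4 by −1.41. Of 8 genes of the planar polarity branch 6 were lower and 2 higher, again against 34.0% and 37.1%, led by the atypical cadherins Celsr1 (−3.48) and Celsr2 (−3.41) and by Daam2 (−1.93).

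Beside the TCF/LEF factors, the nuclear role includes their co-activators and co-repressors, and of its 20 genes 16 were called lower and 4 were not called. Not called were, among others, the co-activators Pygo2 (mean 2126 at 0 h and 2058 at 48 h) and Bcl9l (326 and 249), named here after their values were seen. Tle2, a Groucho co-repressor, had scores of 788, 812 and 734 at 0 h and of 15, 27 and 28 at 48 h (−5.05, adjusted p = 1.69e-09). Pygo1, a co-activator that joins β-catenin through Bcl9, went from 1386, 1370 and 1604 to 242, 223 and 199 (−2.71). Bcl9 was lower by −2.13, and its scores of 507, 325 and 1012 at 0 h and 893 and 181 at 12 h were highest in the same libraries as those of Lef1.

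Of 15 genes listed as general Wnt targets 10 were lower (34.0% of all transcripts) and 4 higher (37.1%) at 48 h, with a median of −2.22, and some of them are counted under other roles too. The lowest were Tnfrsf19, a receptor of the TNF family (−4.45, mean 4001 ± 505 to 189 ± 70.9), with Lgr5 and Dkk1. The 4 that were higher, named here after their values were seen, were Cd44 (2.86), Rnf43 (2.29), Ccnd1 (1.28) and Nkd2 (1.08). Cd44, a hyaluronan receptor, rose from 904, 983 and 1004 at 0 h to 7504, 6092 and 7504 at 48 h, and Ccnd1, which encodes cyclin D1, from 3452, 3087 and 2410 to 7398, 5380 and 9189. Rnf43, a ubiquitin ligase that removes Frizzled from the membrane, was at 88, 8 and 15 at 0 h, highest in the epithelium-rich replicate 1, and at 150, 127 and 76 at 48 h, and its change was 3.25 without 0 h replicate 1 and 1.60 without 0 h replicate 2.

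**Figure D4:**
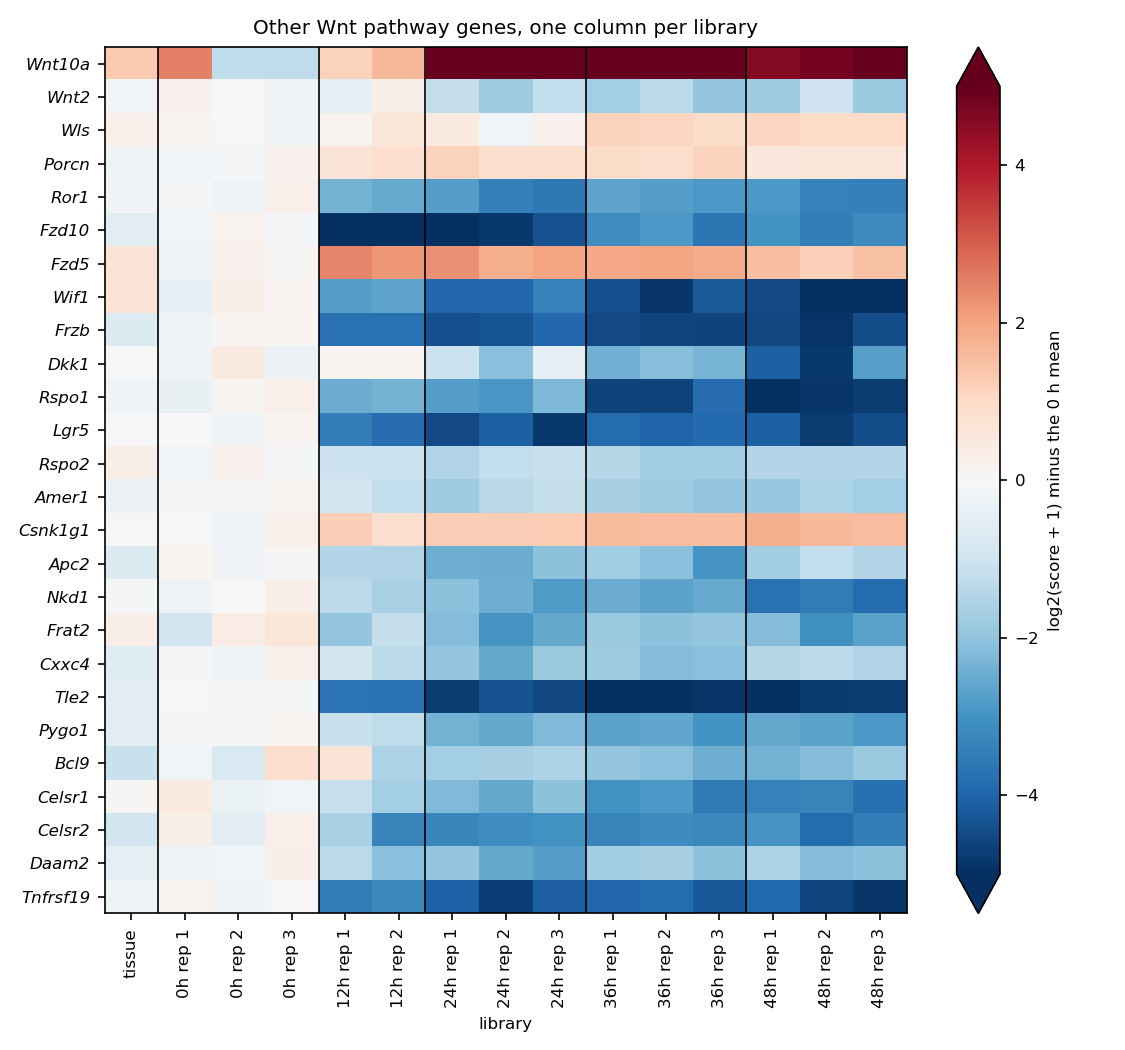
Log2 difference of each library from the 0 h mean for the other genes of the Wnt pathway list named by their change at 48 h (rows, by role). Columns are the 15 libraries, by time point and tissue, and colours end at 5 in either direction. Genes named after their values were seen, such as Cd44, Rnf43, Ccnd1 and Nkd2, are not shown. Rows such as Frzb (735 and 750 at 12 h) change between 0 h and 12 h, Dkk1 (276 and 271 at 12 h) changes later, and Wnt7a is left out because it is listed at 0 at 0 h.

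Across the list of 108, 17 genes (15.7%) were called between 12 and 24 h, 5 higher and 12 lower, where 8.25% of all transcripts were. Between 24 and 36 h 17 (15.7%) were called, 8 higher and 9 lower, against 19.7%. None was called between 36 and 48 h, where 0.0248% of all transcripts were, and 19 were at an unadjusted p below 0.05 (limma) against 13.4%. Between 24 and 48 h 26 (24.1%) were called, 9 higher and 17 lower, near the 23.8% of all transcripts. The 24 h to 12 h count rests on 1 library of each group: without 12 h replicate 1 it was 2, and without 24 h replicate 2 it was 4. The 36 h to 24 h count was between 8 and 11 without 24 h replicate 2 or 3 or 36 h replicate 1 or 2.

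The transcripts whose pattern was most like that of Lef1 were found from the root mean square difference of centred log2 scores over the 14 cell libraries, where 0 is an identical pattern and the median over 12078 transcripts was 1.237. The 5 nearest were Tfap2b (0.252), Pax9 (0.279), Tenm4 (0.296), Sema6d (0.3) and Crtc1 (0.327). Tfap2b and Pax9 encode transcription factors, and Pax9 is known to be needed in dental mesenchyme at the bud stage. Tfap2b had scores of 1828, 2339 and 4601 at 0 h, with replicate 3 highest as in Lef1, and of 312, 609 and 591 at 48 h. Pax9 had 3850, 4049 and 5959 at 0 h and 619, 1056 and 1023 at 48 h. Among the 10 genes, Tcf7 was nearest to Lef1 (0.423, the 35th of all transcripts) and Wnt5a the farthest (1.33, the 7459th), and Axin2, at 0.836, was farther from Lef1 than Tcf7l2, Ctnnb1 and Tcf7l1. These likenesses describe the same 14 libraries as the changes above and were not tested.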

How the data were processed

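RNA was sequenced by the authors on an Illumina platform from TruSeq libraries of 14 mDMC samples and 1 tissue sample. Per the paper's methods the reads were trimmed, aligned with bowtie to the mm10 transcriptome and quantified with RSEM (version 1.1.21 per the submitters' processing notes, while the paper's methods give a later one). The deposited values are whole-number scores: the table names them cpm, but library totals of 21357605 to 21365980 exceed that unit, and 71.9% of ranks hold the same value in every library. The step that gave the libraries a shared distribution is not given in the sources used here. It hides changes in total RNA.

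Transcript identifiers were matched to GENCODE M21 (GRCm38, the build called mm10): 11973 of 12089 matched, 116 did not. The 14 cell libraries entered limma 3.58.1 under R 4.3.3 as log2(score + 1), each time point having its own mean and eBayes an intensity trend. A transcript was tested if 2 or more libraries held it at 1 ppm of their total or above, which left 12079. All 10 genes passed this filter, though Tcf7 lay below its level in every library of 36 h. P-values were Benjamini-Hochberg adjusted over all 12079. The study's own count test needs raw counts and was not repeated. Besides the 10 genes, the text names at most 3 genes per role of the Wnt list, those called with the largest change at 48 h, and the 5 transcripts most like Lef1. Wnt list genes named outside this rule are marked in the text as named after their values were seen. The 10 genes, the Wnt list, the marker lists and the rules were chosen with earlier results of these data known. Groups came from the sample labels. Alternatives were the pseudocount, the filter, scaling, the threshold, the replicate block, the samples fitted and each library left out, and leaving out 0 h replicate 3 with 12 h replicate 1 was added after the data were seen. Scripts were tested on simulated data.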

Additional observations from a re-analysis of the deposited data

How the results depend on the processing

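Of 40 changes of the 10 genes against 0 h, 34 were called, and 27 of these stayed called in the same direction under 23 alternatives of the fit, which leave out the change of threshold given below. These ended a call for 7 changes (Wnt5a at 12, 36 and 48 h, Fzd2 and Lef1 at 12 h, Tcf7l1 at 36 h, Tcf7l2 at 24 h) and added one for Lrp6 and Tcf7 at 12 h. Tcf7 was not tested with a filter of 1 ppm in all 14 libraries. The 12 h change of Tcf7l1 reversed to 0.35 without 0 h replicate 3, 0.66 without 12 h replicate 2 and 0.03 with a replicate block, and that of Tcf7l2 to 0.22 without 0 h replicate 3 and 0.64 without 12 h replicate 2, none of them called. Without 12 h replicate 1 these changes were −0.79 and −0.72.

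The labels tie the replicate numbers to no shared litter or day. Deviations from the group means correlated between −0.25 and 0.318 (median 0.067) over 26 same-number pairs, of which 11 were above 0.1, against 6 of 52 pairs of different numbers, and 10 of 14 libraries correlated best with their own number. Not every same-number pair was above 0.1. Deviations cancel within a group, so the pairs are not independent and cannot settle whether the numbers pair the libraries. The main fit took no pairing, though these values hint at a shared component. With the replicate block, 1 of the 10 genes, Lrp6, was called at 24 h against 12 h and 1, again Lrp6, at 48 h against 24 h. Against 0 h, Lrp6 at 12 h was then called (adjusted p = 0.0129, limma) and Tcf7l2 at 24 h against 0 h was not called (adjusted p = 0.0559, limma). With only the time points compared in the fit, 2 of the 10 were called at 36 h against 24 h, and 4 genes of the Wnt list both at 24 h against 12 h and at 48 h against 36 h. The share of all transcripts called was worked out for the main fit only, so counts from other fits cannot be set against one. At an unadjusted p below 0.05 and a fold above 2, 4, 5, 6 and 7 of the 10 were called at 12, 24, 36 and 48 h against 0 h, Wnt5a at none of them. Of the Wnt list 43, 49, 54 and 56 of 108 were called at these times, and 24.3%, 28.0%, 31.1% and 32.1% of all transcripts. At 24 h against 12 h 1 of the 10 was called, and of the list 9 were lower and 4 higher, where 3.68% of all transcripts were called. The list had 6 at 36 h against 24 h (4.17% of all transcripts), 2 at 48 h against 36 h (1.36%) and 7 at 48 h against 24 h (5.05%). Without 0 h replicate 3 and 12 h replicate 1 together, 3 of the 10 were called at 12 h against 0 h, and 3 of the list at 24 h against 12 h. The cause of these shifts was not tested.

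Leaving out 1 library at a time, 3 to 7 of the 10 were called at 12 h (3 without 12 h replicate 2), 9 to 10 at 24 h, 7 to 9 at 36 h and 9 to 10 at 48 h against 0 h, and 0 to 3 at 24 h against 12 h (3 without 12 h replicate 2), 0 to 2 at 36 h against 24 h (2 without 48 h replicate 1), 0 to 1 at 48 h against 36 h (1 without 48 h replicate 1) and 0 to 1 at 48 h against 24 h (1 without 36 h replicate 3 or 48 h replicate 1). For the Wnt list the ranges were 62 to 71, 77 to 85, 79 to 85 and 82 to 89 against 0 h, 2 to 20 at 24 h against 12 h, 8 to 24 at 36 h against 24 h, 0 to 4 at 48 h against 36 h (4 without 24 h replicate 1) and 20 to 27 at 48 h against 24 h. Leaving out a 12 h library leaves 1 in that group, assumed to vary like the others. The unknown depth gives no limit for low scores such as those of Tcf7.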
